A study of Homo sapiens with 3 samples.

Results

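The proneural and OLIG genes described here encode 9 basic helix-loop-helix (bHLH) transcription factors, taken by name out of 62754 genes in each table: NEUROG1, NEUROG2, NEUROG3, ATOH1, NEUROD1, NEUROD4, OLIG1, OLIG2 and OLIG3. All 9 names were found, each on a single row. They were measured by sequencing polyadenylated RNA of primitive neural progenitor cells (pNPCs), neural cells of an early stage that can renew themselves. These cells had been made from the established human embryonic stem cell line H1. The design holds 1 group, wild type, with 3 replicates and no contrast, so every value below is a level with its spread, and whether the replicates were grown separately is not stated. The cells were grown with FGF2, the WNT pathway activator CHIR99021, human LIF, the TGF-beta receptor inhibitor SB431542, the ROCK inhibitor Y-27632, N2 and B27 without retinoic acid. All libraries come from 1 cell line and were grown in that medium, so neither can be varied here.

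Proneural bHLH proteins bind DNA as heterodimers with E proteins and push dividing neural progenitors towards neuronal fates. ID proteins take up the E proteins, and HES and HEY repressors, many of them NOTCH targets, hold proneural genes down. The OLIG genes belong to the same superfamily but mark progenitor domains: OLIG3 the dorsal neural tube, and OLIG2, with its neighbour OLIG1, the motor neuron progenitor domain and later the oligodendrocyte lineage.

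Of these genes OLIG3 alone was clearly on. It was the only member with a level of at least 1 TPM, a unit that divides reads by transcript length and by the total of the library, in all 3 libraries. That is the rule used here for detected. OLIG1 passed 1 TPM in replicates 1 and 3 but not in replicate 2, and the other 7 stayed below 1 TPM in every library. Among protein-coding genes 62.2% were detected by the same rule, and 23% of all genes. The median member stood at 0.11, 0.08 and 0.15 TPM in replicates 1, 2 and 3, against a protein-coding median of 5.31, 6.62 and 6.92 TPM.

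**Figure D1:**
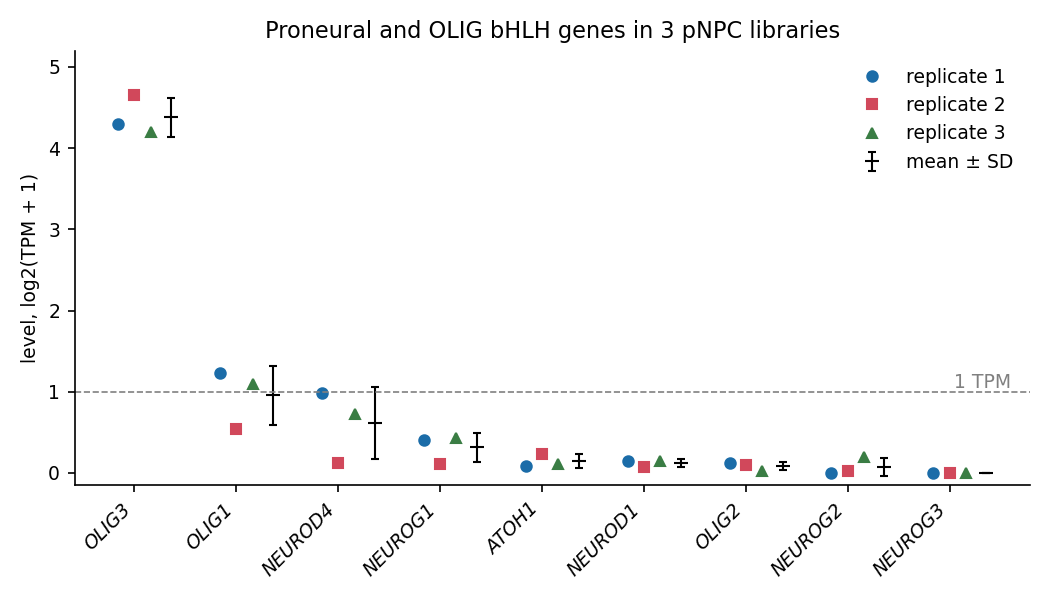
Level of each gene on the log2(TPM + 1) scale (vertical axis) in the 3 pNPC libraries, ordered by mean TPM; symbols are single libraries and black bars are the mean ± SD of that scale (n = 3). OLIG3 lies above 4 in all 3 libraries, while only OLIG1 among the others crosses the dashed line at 1 TPM.

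Expected counts summed to 34658454 in replicate 1, 38400092 in replicate 2 and 30038114 in replicate 3. Replicate 1 stood somewhat apart: the effective length of OLIG3 was shorter than its transcript by 216.18 bases there, against 253.36 and 258.88 bases in replicates 2 and 3. Compared gene by gene, the counts of replicate 1 differed from those of replicates 2 and 3 with a chi-square of 82.5 and 82.6 per degree of freedom, and those of replicates 2 and 3 from each other with 19.4. Of 8 neural progenitor markers 7 were detected, beside 62.2% of protein-coding genes. They were led by VIM, NES and FABP7 at 1912 ± 194, 181 ± 21.1 and 103 ± 31.3 TPM (mean ± SD, n = 3). PAX6, a defining neural progenitor factor, was not detected at 0.44 ± 0.34 TPM. All 7 mesenchyme markers were detected, beside the same 62.2%, with a summed level of 628, 1322 and 925 TPM in replicates 1, 2 and 3. In bulk RNA, few cells with much of a transcript and many cells with little cannot be told apart.

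OLIG3 (ENSG00000177468.7, chromosome 6, 137492199 to 137494394, GRCh38) has a single annotated transcript in the tables. It had 938, 1219 and 679 expected counts in replicates 1, 2 and 3. These corresponded to 18.7, 24.1 and 17.3 TPM, with exact Poisson 95% intervals of 17.5 to 19.9, 22.8 to 25.5 and 16.04 to 18.7 TPM, and to 20.0 ± 3.61 TPM over libraries (mean ± SD, n = 3). Replicate 2 was highest, and its interval did not overlap those of the other libraries, so these libraries differed by more than counting error. OLIG3 stood above 68.9%, 70.8% and 64% of protein-coding genes in the 3 libraries, a level somewhat above the middle of all protein-coding genes and far from the most abundant transcripts. All intervals and floors given here reflect the error of counting alone.

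Set against genes of like abundance, the spread of OLIG3 over libraries did not pass a test of excess. An intercept-only fit in edgeR on all genes asked whether a gene's spread over the 3 replicates exceeded the dispersion trend, and 1.55% of 17046 genes tested were called at a Benjamini-Hochberg adjusted p under 0.05. The filter on low counts left 2 of the 9 members, OLIG3 and OLIG1, and 0 of them were called, with an adjusted p of 1 for OLIG3 (unadjusted 0.433) and 0.79 for OLIG1 (unadjusted 0.0719). At an unadjusted p under 0.05 the count was also 0, and so it was with DESeq2 size factors.

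The sequences upstream of 3 members are shown because their levels span the range: OLIG3 was on, NEUROD4 had the most counts of the others, and NEUROG2 was near 0. They are the 250 bases before the RefSeq start in GRCh38.p14, at chr6:137494395-137494644 (minus strand) for OLIG3, chr12:55019724-55019973 (plus strand) for NEUROD4 and chr4:112516181-112516430 (minus strand) for NEUROG2. Capitals mark matches, on either strand, to the E-box bound by bHLH dimers (CANNTG), the TATA box (TATAAA) and the core of the TCF/LEF site bound with beta-catenin (CTTTG).
OLIG3: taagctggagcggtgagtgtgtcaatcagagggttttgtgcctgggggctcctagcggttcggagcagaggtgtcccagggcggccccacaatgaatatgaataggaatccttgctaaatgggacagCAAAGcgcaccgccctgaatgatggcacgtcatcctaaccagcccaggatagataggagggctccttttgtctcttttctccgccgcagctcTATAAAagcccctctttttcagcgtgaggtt
NEUROD4: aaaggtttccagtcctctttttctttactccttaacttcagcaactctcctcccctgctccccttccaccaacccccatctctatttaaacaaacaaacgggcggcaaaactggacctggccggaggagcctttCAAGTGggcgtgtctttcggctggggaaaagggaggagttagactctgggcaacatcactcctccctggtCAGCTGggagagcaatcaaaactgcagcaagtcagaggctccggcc
NEUROG2: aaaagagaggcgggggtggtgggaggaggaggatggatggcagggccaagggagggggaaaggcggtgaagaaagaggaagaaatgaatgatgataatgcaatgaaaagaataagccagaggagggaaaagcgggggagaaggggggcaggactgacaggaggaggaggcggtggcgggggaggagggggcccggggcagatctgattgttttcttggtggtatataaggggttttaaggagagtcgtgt
The OLIG3 window held 1 TATA box, whose first base lies 31 bases before the start, a match found in 10.72% of 35116 RefSeq windows of this length. It also held 1 TCF/LEF core, found in 42.07% of windows, and 0 E-boxes, found in 61.82%. The NEUROD4 window held 2 E-boxes, reading CAAGTG and CAGCTG, and the NEUROG2 window held no match to any of the 3 motifs. RefSeq windows were at hand for 7 of the 9 members, and of those only OLIG3 had a TATAAA match. Only this exact hexamer was counted. The variant TATATAA, which lies in the NEUROG2 and NEUROD1 windows close to the start, was not, so a TATA-like sequence is not particular to OLIG3. The OLIG3 window held 10 CG dinucleotides, near the median of 11, whereas NEUROG1, NEUROG3 and NEUROD1 held 30, 25 and 24. Matches describe letters in these windows and say nothing of whether a factor binds there.

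OLIG2 (ENSG00000205927.5, chromosome 21, 33025935 to 33029185) and OLIG1 (ENSG00000184221.13, chromosome 21, 33070141 to 33072413) lie 40955 bases apart and are both regulators of the oligodendrocyte lineage. OLIG2 had 5, 4 and 1 expected counts, or 0.09, 0.07 and 0.02 TPM, in replicates 1, 2 and 3. The OLIG3 level was 214 times that of OLIG2 in replicate 1 (exact 95% interval 91.5 to 661), 349 times in replicate 2 (136 to 1282) and 777 times in replicate 3, where the single OLIG2 read leaves an interval of 139 to 30754. OLIG2 was thus close to silent, at or under the 3-count floor of 0.0668 TPM in replicate 3.

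OLIG1 came next after OLIG3 in TPM, at 1.35, 0.46 and 1.14 TPM in replicates 1, 2 and 3, or 0.98 ± 0.47 TPM (mean ± SD, n = 3). These rested on 37, 18 and 14 expected counts (Poisson 95% intervals 26.1 to 51, 10.7 to 28.4 and 7.65 to 23.5). In counts per 1000000, without length, these were 1.07, 0.47 and 0.47, so that replicates 2 and 3 were alike and low, whereas by TPM replicates 1 and 3 were alike and high. OLIG1 has 3 annotated transcripts of unequal length, and the deposited effective length, which follows the share given to each, was 1083.08, 1495.41 and 607.61 bases. With 1 effective length for all libraries, a setting added once these values were known, OLIG1 stood at 1.31, 0.67 and 0.67 TPM, so that replicate 3 fell below 1 TPM. Whether OLIG1 passed 1 TPM in replicate 3 thus depended on the length given to 14 reads, and counting error did not settle it either. As deposited, the Poisson 95% intervals were 0.95 to 1.85, 0.27 to 0.73 and 0.62 to 1.91 TPM in replicates 1, 2 and 3. Those of replicates 1 and 3 included 1 TPM.

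**Figure D2:**
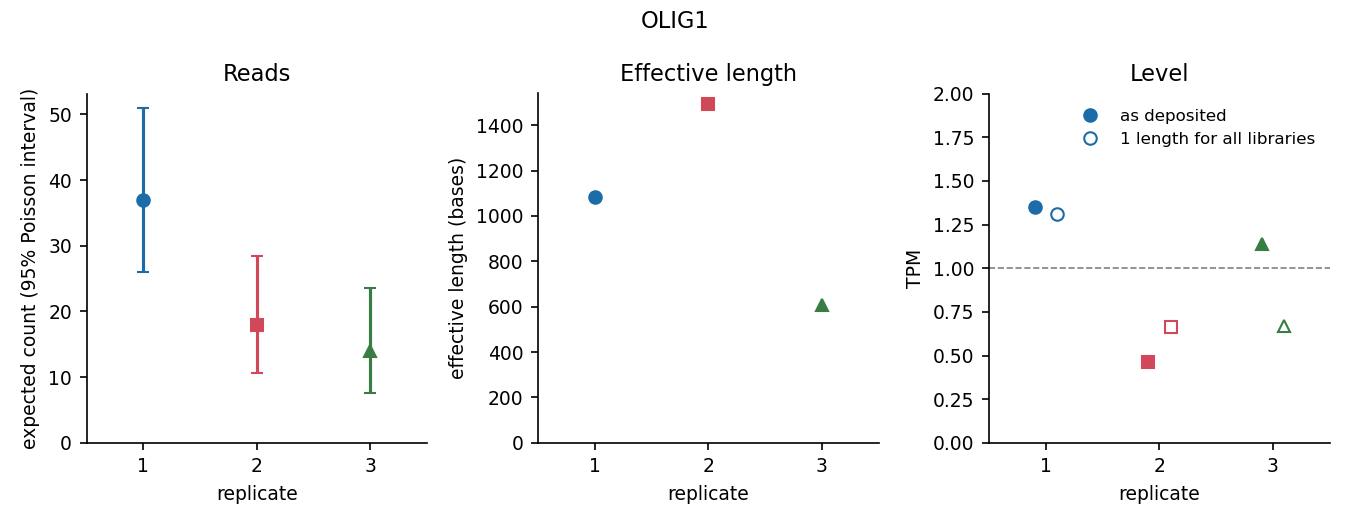
OLIG1 in the 3 libraries (horizontal axes): expected counts with 95% Poisson intervals, effective length in bases, and TPM as deposited (filled) or with 1 effective length for all libraries (open). Replicate 3 has the fewest reads, 14, and the shortest effective length, and lies above the dashed line at 1 TPM only as deposited.

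On the log2(TPM + 1) scale OLIG3 exceeded OLIG1 by 3.06, 4.11 and 3.10 in replicates 1, 2 and 3, a mean of 3.42 ± 0.59 (SD, n = 3), and the ranges of the 2 genes did not overlap. As a ratio of levels OLIG3 was 13.9 times OLIG1 in replicate 1 (exact 95% interval 9.99 to 19.8), 52.1 times in replicate 2 (32.8 to 88.3) and 15.2 times in replicate 3 (9.0 to 28). The gap was widest in replicate 2, where OLIG3 was highest and OLIG1 lowest in TPM. These intervals leave out the uncertain length of OLIG1. With 1 effective length for all libraries OLIG1 stood at 0.67 TPM in replicates 2 and 3, which would make the replicate 3 ratio larger than 15.2. OLIG3 took 86.5%, 96.2% and 87.3% of the summed TPM of the 9 genes, or 90.0% ± 5.38 (SD, n = 3). In reads, the other 8 together had 155, 47 and 86 counts. No test was made of these differences, since OLIG3 was singled out with results of these data known, and 3 libraries could not bring an exact permutation test by sign flips, two-sided, below p = 0.25.

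NEUROD4 (ENSG00000123307.4, chromosome 12, 55019974 to 55030017), a factor of early neuronal differentiation downstream of the neurogenins, differed between libraries in reads. It had 92, 9 and 49 expected counts in replicates 1, 2 and 3, or 0.98, 0.09 and 0.66 TPM (Poisson 95% intervals 0.79 to 1.20, 0.043 to 0.179 and 0.49 to 0.87 TPM). Replicate 2 was low beyond counting error, and the intervals of replicates 1 and 3 overlapped. The filter on low counts removed NEUROD4 because of replicate 2. With no filter beyond 1 count in all libraries, the edgeR fit gave NEUROD4 a Benjamini-Hochberg adjusted p of 0.0294, beside 0.99% of 31721 genes called, and none of the other 7 members with counts was called. Without replicate 2 NEUROD4 passed the filter but was not called (unadjusted p of 0.393 in the edgeR fit). In the RefSeq table a long noncoding RNA gene, LOC101927484, overlaps NEUROD4, and no source used here gives strandedness, so reads of this pair cannot be told apart.

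NEUROD1 (ENSG00000162992.5, chromosome 2, 181668295 to 181680517), which acts in neuronal and endocrine differentiation, had 6, 3 and 3 expected counts, or 0.11, 0.05 and 0.11 TPM. Its deposited effective length also moved, from 2080 and 2240 bases in replicates 1 and 2 to 1313 bases in replicate 3. Replicates 2 and 3 had the same number of reads. The order of libraries in TPM is therefore no measure of a difference for this gene.

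The neurogenins, which start neurogenesis in cortex, spinal cord and sensory ganglia, were at or near 0. NEUROG1 (ENSG00000181965.6, chromosome 5, 135534282 to 135535964) had 12, 3 and 10 expected counts, or 0.32, 0.08 and 0.35 TPM, and was lowest in replicate 2, as NEUROD4 was. NEUROG2 (ENSG00000178403.4, chromosome 4, 112513516 to 112516180) had 0, 1 and 6 counts, or 0, 0.02 and 0.15 TPM, and its antisense partner NEUROG2-AS1 had 0 counts in each library. NEUROG3 (ENSG00000122859.5, chromosome 10, 69571485 to 69573422), the factor that sets pancreatic endocrine progenitors, had 0 counts in all 3 libraries, so that a level of up to 0.114 TPM, what 3 counts would give in replicate 3, is allowed. Among protein-coding genes 12.2% had 0 counts in all 3 libraries. Against a floor of 3 counts per library, with the OLIG3 level taken as measured, OLIG3 was at least 212-fold, 273-fold and 152-fold higher than NEUROG3 in replicates 1, 2 and 3. The exact two-sided 95% intervals of these ratios, which include the counting error of OLIG3, start at 172, 222 and 123.

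ATOH1 (ENSG00000172238.6, chromosome 4, 93828753 to 93830964), the proneural gene of the rhombic lip and of the most dorsal spinal interneurons, had 3, 9 and 3 expected counts, or 0.06, 0.18 and 0.08 TPM. It was highest in replicate 2, but the Poisson 95% intervals of the 3 libraries, 0.012 to 0.173, 0.081 to 0.336 and 0.016 to 0.222 TPM, overlapped. ATOH1 and OLIG3 meet in the dorsal hindbrain in embryos, but in these libraries OLIG3 stood 315, 137 and 228 times above ATOH1 (exact 95% intervals 108 to 1531, 71.7 to 299 and 77.8 to 1109).

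In the order of mean TPM the genes ran OLIG3, OLIG1, NEUROD4, NEUROG1, ATOH1, NEUROD1, OLIG2, NEUROG2, NEUROG3. Only the step from OLIG3 to OLIG1 separated genes whose ranges over libraries did not overlap. OLIG1 exceeded NEUROD4 by 0.35 ± 0.09 on the log2(TPM + 1) scale in 3 of 3 libraries, but with 1 effective length the 2 genes stood at 0.67 and 0.68 TPM in replicate 3. NEUROD4 exceeded NEUROG1 by 0.30 ± 0.29, and 5 of the 8 steps, all those below NEUROG1, were no larger than their SD over libraries. Neighbours below NEUROG1 therefore did not differ beyond their spread, although genes further apart in the order can. In replicates 1 and 3 NEUROG1, at 0.32 and 0.35 TPM, lay above the 3-count floors of NEUROG3, 0.0879 and 0.114 TPM. In replicate 2 NEUROG1 did not, at 0.08 TPM against a floor of 0.0883 TPM.

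Of 15 other proneural and neuronal bHLH genes listed here, 1 was detected, beside 62.2% of protein-coding genes. In all libraries 4 of the 15 had 0 counts, beside 12.2% of protein-coding genes. The detected gene was ATOH8, an atonal-related factor, at 16.6, 23.4 and 17.0 TPM. ASCL2 followed at 1.20 ± 0.68 TPM and NHLH1 at 0.99 ± 0.29 TPM (mean ± SD, n = 3), and ASCL4 and BHLHE22 had 0 counts (floors 0.0881 and 0.0493 TPM). OLIG3 and ATOH8, at 20.0 and 19.0 TPM in the mean, lay within their spread over libraries, and their ranges overlapped. ATOH8 was the gene nearest to OLIG3 among 122 list genes, at a Euclidean distance of 0.16 over the 3 libraries in log2(TPM + 1), followed by TCF7 at 0.42 and the pluripotency list gene DPPA4 at 0.61.

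The E protein partners and ID1 to ID3 were more abundant than OLIG3 in each library, while HES5, HEY2 and HEYL lay below it. All 3 E protein genes were detected, TCF3 at 276 ± 41.6 TPM, TCF12 at 139 ± 37.9 TPM and TCF4 at 55.8 ± 19.1 TPM (mean ± SD, n = 3), each lowest in replicate 1, as were 56% of all detected genes. Of 10 inhibitor genes 7 were detected, beside 62.2% of protein-coding genes, led by ID3, ID2 and ID1 at 769 ± 127, 270 ± 39.4 and 171 ± 29.5 TPM. HEY2 stood at 1.31 ± 0.41 TPM and HEYL was lowest at 0.53 ± 0.19 TPM. The inhibitor list median was 33.4, 20.9 and 26.4 TPM in replicates 1, 2 and 3, again beside a protein-coding median of 5.31, 6.62 and 6.92 TPM, and in replicate 2 it was below OLIG3.

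**Figure D3:**
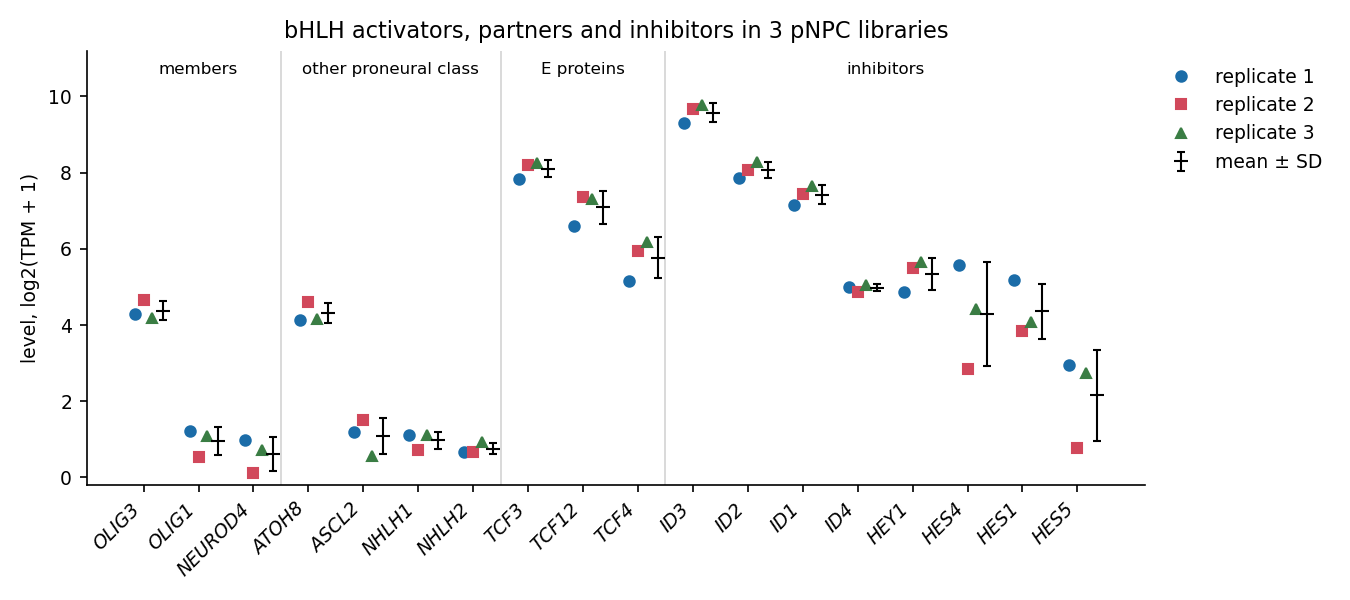
Levels on the log2(TPM + 1) scale (vertical axis) of the 3 highest members and of genes of the other proneural class, E protein and inhibitor lists; symbols are single libraries and bars are the mean ± SD (n = 3). OLIG3 and ATOH8 lie near 4, E protein and ID1 to ID3 genes above 5, and HES4 and HES5 are low in replicate 2.

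The inhibitors did not move together across libraries. In the edgeR fit 3 of the 10 tested were called for excess spread, beside 1.55% of all genes tested. They were HES4 (edgeR fit, Benjamini-Hochberg adjusted p = 1.22e-06), HES1 (0.011) and HES5 (0.0128), all named after their values were seen. HES4 stood at 46.7, 6.26 and 20.5 TPM, HES1 at 35.5, 13.3 and 15.8 TPM and HES5 at 6.76, 0.72 and 5.66 TPM in replicates 1, 2 and 3. Each was lowest in replicate 2, as NEUROD4 was, and none of the ID genes was called. Without replicate 2 the adjusted p was 0.309 for HES4, 0.321 for HES1 and 1 for HES5. HES4 and HES5 kept their calls without replicate 1 (0.0177 and 0.00931) or replicate 3 (1.56e-05 and 0.0248). HES1 also lost its call without replicate 1 (1) or replicate 3 (0.0953) and, narrowly, with no filter (0.0501). A fit without 1 replicate has fewer samples and its own dispersion, so a lost call does not show which library set it.

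Many genes that act with or after proneural factors were detected at modest levels. Of 18 genes of the neurogenic cascade 14 were detected, beside 62.2% of protein-coding genes, 5 of them at 5 TPM or more in all libraries, with a list median of 4.94, 3.2 and 5.31 TPM, below the protein-coding median in each library. The neuronal tubulin gene TUBB3 stood at 375 ± 89.4 TPM, HES6, a bHLH gene that rises in neurogenesis, at 40.2 ± 11.7 TPM, and the NOTCH ligand gene DLL3 at 17.2 ± 8.23 TPM (mean ± SD, n = 3). The lowest were TBR1, a cortical neuron factor, at 0.07 ± 0.07 TPM and ST18 at 0.42 ± 0.48 TPM. Of the 14 detected genes 9 were lowest in replicate 2, against 20.9% of all detected genes. In the edgeR fit 3 of 16 tested were called for excess spread, beside 1.55% of all genes tested. They were STMN2 (edgeR fit, adjusted p = 0.00388), ELAVL4 (0.00548) and DLL3 (0.0299), and for each replicate 1 was highest and replicate 2 lowest. With a common dispersion DLL3 lost its call (adjusted p = 0.091) and ELAVL3 gained one (0.0133), and DLL3 lost it also with no filter (0.113) and without replicate 3 (0.0732). Without replicate 1 the adjusted p of STMN2, ELAVL4 and DLL3 was 0.765, 0.19 and 0.255, and without replicate 2 it was 0.508, 0.901 and 0.998. These libraries ranked NEUROD4 in the same order, as they did CHGA, a gene of neuroendocrine granules, at 64.3, 9.43 and 35.9 TPM (adjusted p = 1.14e-08, and 0.593 without replicate 2). Whether the share of neuronal cells differed between libraries was not tested.

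Genes of the dorsal neural tube, the setting of OLIG3, were detected about as often as protein-coding genes in general. Of 12 dorsal progenitor genes 7 were detected, beside 62.2% of protein-coding genes, with MSX1 at 144 ± 64.0 TPM, ZIC2 at 118 ± 19.7 TPM and ZIC1 at 99.0 ± 24.8 TPM, while GSX2 had 0 counts (floor 0.175 TPM) and WNT1 stood at 0.19 ± 0.15 TPM (mean ± SD, n = 3). The list median was 11.6, 19.2 and 15.9 TPM in replicates 1, 2 and 3. Of the 7 detected genes 5 were highest in replicate 2, where OLIG3 was highest, against 32.5% of all detected genes. In the edgeR fit 2 of 9 tested were called for excess spread, beside 1.55% of all genes tested. They were MSX2 and WNT3A (edgeR fit, adjusted p = 0.00445 and 0.00679), with 21.8, 74.9 and 35.1 TPM and 2.44, 11.6 and 7.76 TPM. MSX2 lost its call with a common dispersion (0.0554) and without replicate 2 (1), and WNT3A without replicate 1 (0.664) or replicate 2 (0.472).

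Listed genes of neurons of the dorsal neural tube, not all of them from the OLIG3 domain, were mostly undetected. Of 14 such genes 3 were detected, beside 62.2% of protein-coding genes. They were LMX1B at 17.9 ± 8.89 TPM, FOXD3 at 6.06 ± 1.43 TPM and LHX2 at 5.81 ± 3.33 TPM (mean ± SD, n = 3). Each of these also acts outside neurons: LMX1B at the isthmus, FOXD3 in neural crest and LHX2 in forebrain and eye progenitors. BARHL1 and LBX1, factors of dorsal interneurons, had no counts, with floors of 0.09 and 0.0981 TPM. In replicates 1, 2 and 3 the median of the list was 0.40, 0.15 and 0.29 TPM.

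Most of the beta-catenin target genes listed here were detected, in a medium that contains CHIR99021. Whether CHIR99021 raised them was not tested. Of 8 genes 7 were detected, beside 62.2% of protein-coding genes. The highest were LEF1 at 65.4 ± 15.3 TPM, AXIN2 at 39.4 ± 10.4 TPM and TCF7 at 17.4 ± 2.11 TPM (mean ± SD, n = 3). SP5 was undetected at 1.24 ± 1.02 TPM. All 7 detected genes were highest in replicate 2, as OLIG3 was, against 32.5% of all detected genes. The edgeR fit called only NKD1 of 8 tested (adjusted p = 0.00778), beside 1.55% of all genes tested. With a common dispersion NKD1 was not called (0.0775) and NOTUM was (0.0174), and NKD1 lost its call also without replicate 1 (0.0525) or replicate 2 (0.616). All 7 mesenchyme markers were likewise highest in replicate 2, with COL1A2 at 185, 388 and 261 TPM, PRRX1 at 86.2, 294 and 239 TPM and TWIST1 at 142, 239 and 187 TPM. In the edgeR fit 1 of 7, COL1A1, was called, beside the same 1.55% (adjusted p = 0.0106, against 0.0666 with a common dispersion and 1 without replicate 2). The part of the beta-catenin target and mesenchyme genes in the level of OLIG3 was not tested.

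**Figure D4:**
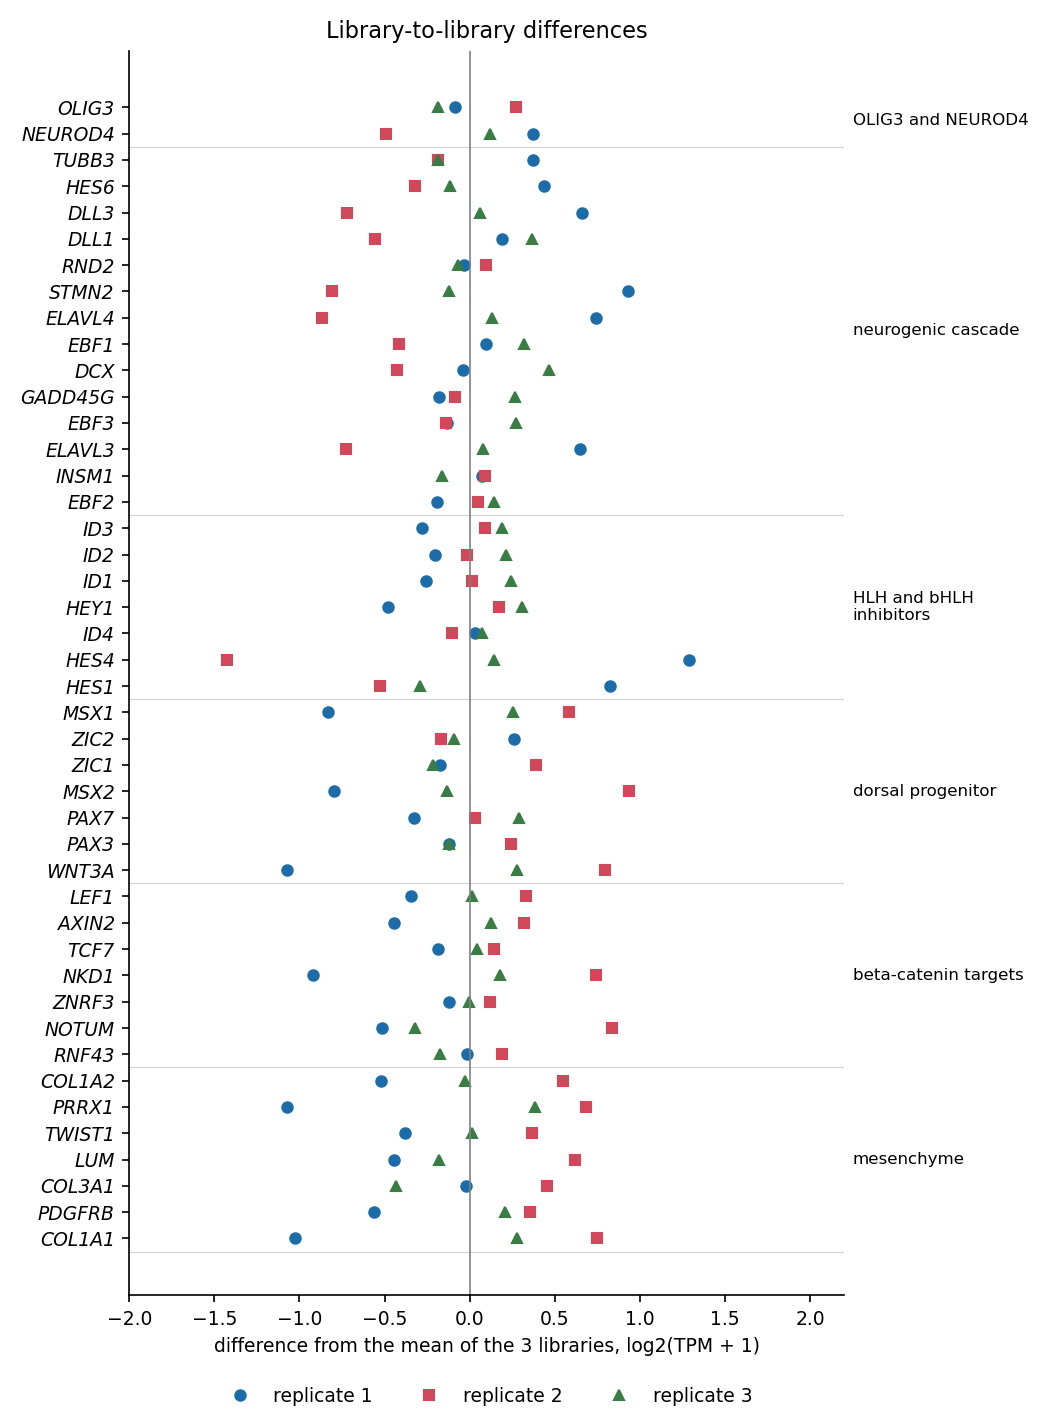
Difference of each library from the mean of the 3 on the log2(TPM + 1) scale (horizontal axis) for OLIG3, NEUROD4 and the detected genes of 5 lists; symbols are libraries. Replicate 2 lies highest for OLIG3 and for all 7 beta-catenin target and all 7 mesenchyme genes, and lowest for NEUROD4 and 9 of 14 neurogenic genes.

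Genes of the OLIG2 domain and of the oligodendrocyte lineage, which in the embryo depend on ventral hedgehog signals, were mostly low. Of the 16 listed here 5 were detected, beside 62.2% of protein-coding genes. The list median was 0.36, 0.38 and 0.40 TPM in replicates 1, 2 and 3, against a protein-coding median of 5.31, 6.62 and 6.92 TPM. SOX10 stood at 22.2 ± 7.0 TPM, PDGFRA at 14.0 ± 7.90 TPM and the hedgehog receptor gene PTCH1 at 14.0 ± 3.35 TPM (mean ± SD, n = 3), and SOX10 and PDGFRA are also genes of neural crest and mesenchyme. In the edgeR fit 1 of 8 tested, PDGFRA, was called for excess spread (adjusted p = 0.000463), beside 1.55% of all genes tested. PDGFRA stood at 4.92, 18.1 and 19.0 TPM in replicates 1, 2 and 3. It kept its call without replicate 2 (0.0294) or replicate 3 (0.0112) but not without replicate 1. FOXA2 and NKX2-2, which define the floor plate and the domain next to it, had 0 counts (floors 0.0670 and 0.0795 TPM). CSPG4 and MYRF, genes of oligodendrocyte progenitors and of myelination, were the other detected genes, at 7.08 ± 1.86 and 5.43 ± 2.02 TPM, and the ventral factor NKX6-1 stood at 1.89, 0.75 and 0.45 TPM (all 3 named after their values were seen).

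Endocrine pancreas genes, the setting of NEUROG3, were mostly undetected. Of the 7 genes listed here 1, CHGA, was detected, beside 62.2% of protein-coding genes. Another 3 had 0 counts, beside 12.2% of protein-coding genes, among them GCG (floor 0.256 TPM). SST stood at 0.28 ± 0.37 TPM and PAX4 at 0.04 ± 0.03 TPM (mean ± SD, n = 3). Of 5 pluripotency genes 1 was detected, DPPA4 at 22.0 ± 3.97 TPM, again beside 62.2% of protein-coding genes. POU5F1 and NANOG stood at 0.11 ± 0.03 and 0.02 ± 0.03 TPM, TDGF1 had 0 counts (floor 0.211 TPM) and ZFP42 stood at 0.01 ± 0.02 TPM.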

How the data were processed

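RNA-seq gene tables of 3 wild-type pNPC libraries, derived from the H1 embryonic stem cell line, were used as 1 group. Per the labels' protocols, RNA was taken up on RNeasy columns and libraries made with a NEBNext Ultra II DNA kit; no source used here gives strandedness or the annotation release. RSEM 1.3.1, STAR 2.7.11a, Trim Galore 0.6.10 and the build GRCh38 are listed, without their order, per the submitters' processing notes. Per the file headers, the deposited tables give expected counts (estimated reads per gene, not normalized), TPM (divided by the authors by effective length and brought to a fixed sum), FPKM (used only as an alternative) and lengths. RSEM divides reads among transcripts and genes, so the effective length of a gene with several transcripts can differ between libraries.

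The members, the 12 gene lists, tests, alternatives and naming rule were chosen with earlier results of these data known. Some genes of these lists are not reported here and were left out of all list counts and medians. Each list names its 3 highest genes by mean TPM and up to 2 undetected genes of lowest mean TPM, and all 9 members, the 3 list genes nearest to OLIG3 and the flanking genes are named. Detected means TPM of at least 1 in all libraries. Differences of levels used a pseudocount of 1, and log2(TPM + 1) understates differences of low genes. Excess spread was tested in edgeR 4.0.16 (R 4.3.3) on the expected counts after rounding to whole numbers. TMM scaling, filterByExpr and an intercept-only fit at the trended dispersion were used, and the deviance left by the fit was set against a chi-square of 2 degrees of freedom, after the script was tested on simulated data. Such p-values measure only how far these samples differ, which may be a technical spread. Ratios of levels carry exact binomial intervals of the counts, scaled for length. Gene types came from GENCODE (92.8% of identifiers matched), coordinates and upstream sequences from RefSeq, GRCh38.p14. Library pairs were compared over genes with at least 20 counts. Python 3.11.15, pandas 2.3.3, scipy 1.17.1 and matplotlib 3.10.9 were used.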

Additional observations from a re-analysis of the deposited data

How the results depend on the processing

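OLIG3 was detected under each alternative tried, and the count of detected members stayed at 1 with a TPM minimum of 0.5 or 5, an FPKM minimum of 1 and 1 effective length per gene. It became 2, with OLIG1 added, when at least 10 expected counts in each library were asked for, and without replicate 2, so that leaving out 1 replicate gave 1 to 2. The lead of OLIG3 over the next highest member, 3.42, became 4.31 with a pseudocount of 0.1, which weights the low level of OLIG1 more, and was 3.61 in CPM, where NEUROD4 replaced OLIG1 as the next. It was 3.08 to 3.60 without 1 replicate. The OLIG3 share ranged from 86.9% to 91.8% without 1 replicate. The number of genes with excess spread was 265, and 95 to 117 without 1 replicate, a fit with fewer samples. Members called numbered 0, except for NEUROD4 (1) with no filter beyond 1 count. Of 13 list genes called, 13 were called with DESeq2 size factors, 11 with no filter, 8 with a common dispersion, and 5, 1 and 10 without replicate 1, 2 and 3. All 36 alternative mean levels of members lay within 1 SD. List counts stayed within 1.5 times in 20 of 24 cases. A TPM minimum of 0.5 gave 3 other proneural genes in place of 1. A minimum of 5 gave 5 neurogenic genes in place of 14 and 1 gene of dorsal neural tube neurons in place of 3. It gave 2 genes of the OLIG2 domain and oligodendrocyte list in place of 5. No paired analysis was possible because the design has 1 group. Counts of 0 to 12 per library limit what can be said of NEUROG1, NEUROG2, NEUROG3, ATOH1, NEUROD1 and OLIG2. Their Poisson intervals overlapped between libraries, which does not show that the libraries were alike. In the edgeR fit with no filter none of these was called, and the lowest unadjusted p among them was 0.0606, for NEUROG2. NEUROG3, with 0 counts, could not be tested.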

Other observations

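OLIG3 lies in a wide gap between protein-coding genes. Its nearest neighbours named in the tables are IFNGR1, an interferon-gamma receptor gene, 272813 bases before it at 24.8 ± 1.35 TPM, and TNFAIP3, a brake on NF-kB signalling, 371954 bases after it at 5.24 ± 1.37 TPM (mean ± SD, n = 3). IFNGR1 stood at 23.8, 26.4 and 24.3 TPM in replicates 1, 2 and 3, highest in replicate 2 as OLIG3 was but within a narrower range. Around the OLIG2 and OLIG1 pair, the nearest protein-coding gene before OLIG2 named alike in RefSeq and the tables was PAXBP1, 254179 bases away. PAXBP1 stood at 25.2, 47.8 and 63.2 TPM in replicates 1, 2 and 3. A closer gene with another name in RefSeq would have been passed over. On the other side the nearest entry is the readthrough gene IFNAR2-IL10RB, 157524 bases after OLIG1, at 0.26, 1.02 and 1.94 TPM, a value that shares reads with IFNAR2 and IL10RB and is uncertain for that reason.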
